A study of Mus musculus with 8 samples.

Results

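Interferon-stimulated genes are a set of antiviral and immune-signalling genes that cells switch on after they sense an interferon. The set examined here was a list of 41 such genes matched by symbol to the gene table of C3H10T1/2 cells, a mouse mesenchymal line from embryos of the C3H strain. Mx1 and Mx2 are not covered here, so 39 of the 18605 genes in the table were members. Of these, Trim25, a ubiquitin ligase, had at most 4.01 estimated counts in any library and did not pass the filter on low counts, which left 38 members among the 13470 genes tested. The members were chosen by their values in the comparison of the 2 uninduced groups, which was known when the list was drawn up, so values from that comparison, and from any other that uses those libraries, are given as a description, and counts of calls in them are not read as tests of the members.

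RNA was sequenced in 4 groups of 2 libraries. NC cells carried the non-target control and KD-Nap1l2 cells an shRNA against Nap1l2, a histone chaperone gene, both grown without induction. NC-7day and KD-Nap1l2-7day were the same kinds of cells after 7 days of osteogenic induction, in a medium that the methods give as containing dexamethasone, a glucocorticoid. The methods describe lentiviral delivery of shRNA, so all groups are understood to have met a viral vector, and the labels do not say which shRNA was sequenced or whether the libraries of a group were separate cultures. The p-values below then measure only the spread between these libraries, which may be technical.

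Type I interferons bind a receptor of Ifnar1 and Ifnar2 chains, and kinases on that receptor activate a complex that holds Stat2 and Irf9 and binds interferon-stimulated response elements in target promoters. Interferon gamma acts through a receptor of its own and on gamma-activated sites. Several targets, such as Irf7, Stat2 and the RNA sensors, belong to the pathway themselves, and fibroblast-like cells can run it at a low level without infection.

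Totals ran from 17420284 to 19427359 estimated counts per library. Nap1l2 itself had 3 and 3 estimated counts in NC, 2 and 7 in KD-Nap1l2, 15 and 5 in NC-7day, and 7 and 13 in KD-Nap1l2-7day. Its log2 fold change before induction was 0.64 ± 0.98 (SE, edgeR adjusted p = 0.812), and a lower level was not detectable in the libraries labelled KD-Nap1l2, so the groups are named by their labels throughout. Within groups, 4.61% of 12721 genes with at least 1 normalized CPM in 2 or more libraries were at least 2-fold apart between the KD-Nap1l2 libraries and 4.52% between the NC-7day libraries, against 1.70% for NC and 0.574% for KD-Nap1l2-7day. The mesenchymal genes Col1a1, Col1a2 and Vim were at 2099 to 8660 normalized CPM in every library. Of the other mesenchymal markers, Thy1 and Eng were lower, with Thy1 at 0.998 (NC-7day 2) to 10.4 CPM (KD-Nap1l2 2) and Eng at 58.7 to 89.3 CPM. Ptprc, which marks blood cells, had at most 4 estimated counts. In bulk RNA, fewer cells of a type and less RNA per cell cannot be told apart.

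Member promoters were searched for a sequence that interferon-activated complexes bind. RefSeq windows of 300 bases on build GRCm38.p6, from 250 before to 50 after the annotated start, were found for 32 member genes, and not for Dhx58, Zbp1, Oas2, Iigp1, Usp18, Rtp4 and Parp14. A core of the response element, GAAA followed by any 2 bases and GAAA again, was searched on both strands, where matches may overlap each other. It was present in 20 of the 32 genes, or 62.5% (95% exact binomial interval 43.7% to 78.9%), and in 3.99% of all 27025 genes with a window. Of 60 other interferon-stimulated genes outside the list with a window, 26 (43.3%) held it. The interval treats promoters as independent, although those of Ifit3 and Ifit3b share sequence, as described below. Stretches of DNA before the start are printed below for members of different roles because the same core stands at a different distance in each. They run 5′ to 3′ on the gene's strand, and capitals mark the matches.
Isg15: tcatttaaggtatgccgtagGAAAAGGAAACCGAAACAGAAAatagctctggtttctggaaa
Ifit1: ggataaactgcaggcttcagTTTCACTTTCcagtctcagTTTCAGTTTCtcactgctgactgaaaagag
Ifit3: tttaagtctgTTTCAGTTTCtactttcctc
Ifit3b: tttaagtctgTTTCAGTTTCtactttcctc
Oas3: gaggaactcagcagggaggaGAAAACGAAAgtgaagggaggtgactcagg
Rsad2: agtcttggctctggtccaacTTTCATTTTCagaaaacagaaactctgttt
Igtp: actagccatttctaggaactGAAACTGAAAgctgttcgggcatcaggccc
Bst2: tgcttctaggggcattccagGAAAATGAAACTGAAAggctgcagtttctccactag
Cxcl10: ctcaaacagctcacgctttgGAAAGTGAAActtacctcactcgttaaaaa
Socs1: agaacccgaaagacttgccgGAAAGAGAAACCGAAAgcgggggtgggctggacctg

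The Isg15 stretch lies at chr4:156200855-156200916 on the minus strand and holds 3 overlapping matches in a row. Ifit1 is at chr19:34640765-34640833 on the plus strand, with 2 separate matches that read on the other strand. The Ifit3 stretch at chr19:34583397-34583426 and the Ifit3b stretch at chr19:34607793-34607822, both on the plus strand, are identical. When these neighbouring promoters are shifted by 32 bases, 201 of 268 compared bases (75%) are identical, including a run of 84 around these stretches. Oas3 is at chr5:120777705-120777754, Rsad2 at chr12:26456543-26456592, Bst2 at chr8:71537567-71537622, Cxcl10 at chr5:92349073-92349122 and Socs1 at chr16:10785584-10785639, all on the minus strand. Igtp is at chr11:58199502-58199551 on the plus strand. In the GENCODE annotation of this build, none of the printed stretches overlaps an exon, and that of Cxcl10 lies in an intron of an annotated transcript.

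**Figure D1:**
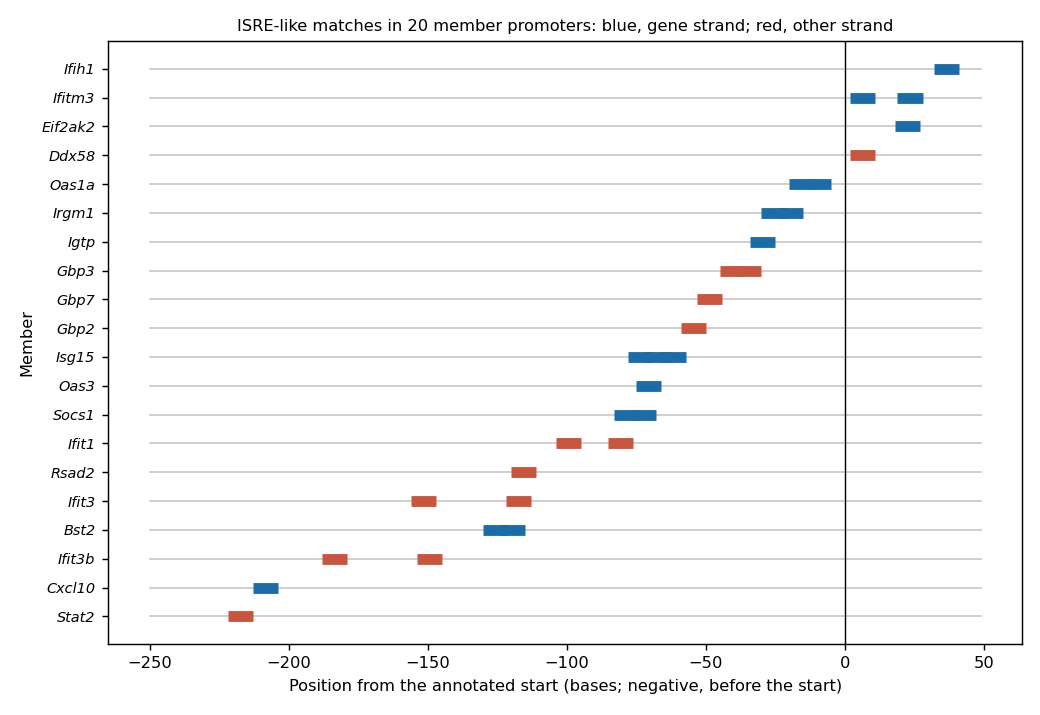
Positions of response element matches on either strand in the 20 member promoters that hold it, in bases from the annotated start (x axis), with 1 grey line per gene for the 300-base window. Of 31 matches, 21 begin within 130 bases before the start and 5 begin after it.

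Matches were counted 31 times in these 20 genes, and 10 windows held more than 1. Their first bases lay from -222 in Stat2 to 32 in Ifih1, with a median of -72. The gamma-activated site TTCNNNGAA, which reads the same on both strands, was in 9 of the 32 member genes (28.1%) and in 9.55% of all genes. It was in 11 of the 60 other interferon-stimulated genes (18.3%). Members without a response element match in the window were Cmpk2, Herc6, Ifi35, Ifi44, Ifit2, Irf1, Irf7, Irf9, Oasl1, Oasl2 and Xaf1 among those tested. Before induction their log2 fold changes had a median of -1.39 (11 genes), and those of members with a match a median of -1.996 (20 genes). The ranges overlapped, at -3.46 to -1.01 and -3.295 to -0.73. The 7 members with no window had a median of -2.03. That comparison chose the list, so these medians are a description. In KD-Nap1l2-7day against NC-7day the medians were 0.02 with a match, 0.17 without and 0.23 with no window.

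Before induction, every tested member was lower in KD-Nap1l2 than in NC, where 48.5% of all genes had values below 0. The libraries of the 2 groups did not overlap for 38 of 38 members, where 21.2% of all tested genes were separated in that direction, and 36 of 38 were at least 2-fold lower, against 3.83% of all genes. The median log2 fold change was -1.90, from -3.46 for Cmpk2 to -0.73 for Eif2ak2, and the median over all genes was 0.01. By edgeR, 0 members had an adjusted p under 0.05 (0.0594% of all genes, lower) and 37 had an unadjusted p under 0.05 (6.73% of all genes, lower). DESeq2 called 9, given without the share of all genes that it called. Without KD-Nap1l2 1 the median was -2.88. This contrast chose the list, so nothing is read from these counts.

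**Figure D2:**
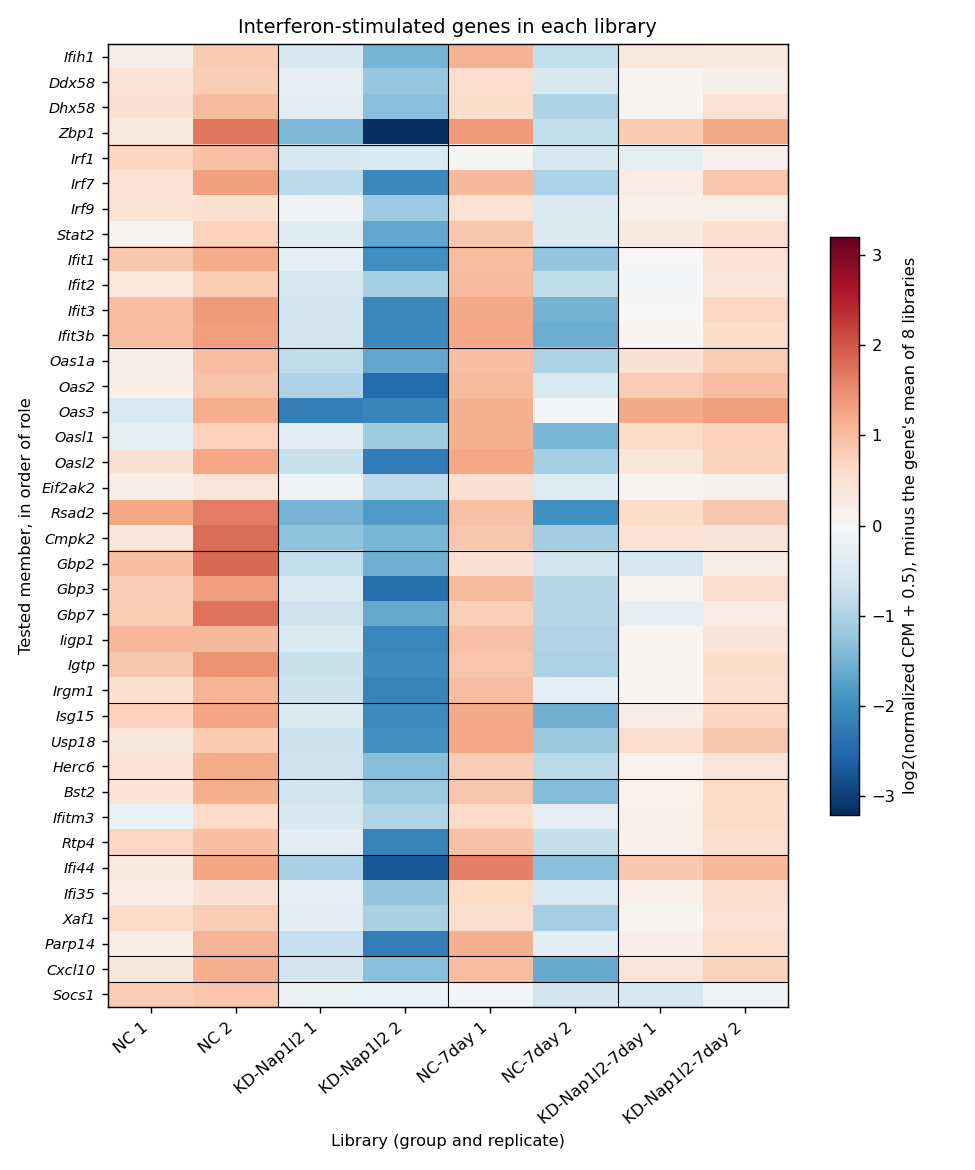
Level of the 38 tested members (rows, by role, with lines between roles) in each of the 8 libraries (columns), as log2(normalized CPM + 0.5) minus the gene's mean over the libraries. NC 2 is the highest library for 26 members and KD-Nap1l2 2 the lowest for 30; NC-7day 2 sits with the low libraries and NC-7day 1 with the high ones.

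The members rose and fell largely together from library to library. Relative to each gene's mean of the 8 libraries, the median member stood at 1.09 (log2) in NC 2, 0.95 in NC-7day 1, 0.55 in KD-Nap1l2-7day 2, 0.45 in NC 1, 0.14 in KD-Nap1l2-7day 1, -0.59 in KD-Nap1l2 1, -0.91 in NC-7day 2 and -1.67 in KD-Nap1l2 2. Their share of a library's counts ran from 0.220% in KD-Nap1l2 2 to 1.51% in NC 2. The control group after induction thus holds both a high and a low library, and every NC-7day value rests on these 2. Whether they differ in culture, handling or labelling was not tested. All 38 members were higher in NC-7day 1 than in NC-7day 2, by a median of 3.65-fold, and 33 were at least 2-fold apart. Between the other pairs the median gap was 1.49-fold in NC, 1.99-fold in KD-Nap1l2 and 1.28-fold in KD-Nap1l2-7day. Across the 8 libraries, 33 of 38 members had a Pearson r above 0.9 with the median of the other members, and the lowest were Socs1 (0.54), Irf1 (0.78) and Oas3 (0.78). These points share libraries and the depth and scaling of each. The uninduced libraries among them also chose the list, so part of this likeness was fixed in advance. No share of all genes at this r is given, and the values are a description.

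Levels per length in NC spanned a wide range, in deposited values taken here as FPKM from their size, since the unit is not given in the sources used here. Ifitm3, a membrane protein that blocks viral entry, was highest at 1740 ± 716 FPKM (SD, n = 2), followed by Ifit3 at 1008 ± 216, Bst2 at 769 ± 275, Ifit1 at 450.1 ± 72.3 and Isg15 at 448 ± 116. The lowest tested members were Oas3 at 6.50 ± 4.88, Cmpk2 at 1.85 ± 1.34 and Oasl1 at 0.99 ± 0.62 FPKM. Along this order, neighbouring genes overlapped between their NC libraries in 30 of 38 steps and were separate in 8.

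Among the RNA sensors, Ifih1 recognises long RNA of viruses in the cytoplasm. Its normalized CPM was 24.7 and 38.9 in NC, 14.8 and 7.30 in KD-Nap1l2, 47.0 and 12.1 in NC-7day, and 27.5 and 26.9 in KD-Nap1l2-7day. The uninduced groups did not overlap, while both induced shRNA libraries fell between the 2 induced controls. The log2 fold change was -1.52 ± 0.59 (SE) before induction and -0.12 ± 0.57 after it (edgeR adjusted p = 0.981). Zbp1, a sensor of left-handed nucleic acid, covered the widest range of the sensors. It stood at 70.9 and 182 CPM in NC, 20.4 and 5.65 in KD-Nap1l2, 145 and 32.5 in NC-7day, and 100 and 130 in KD-Nap1l2-7day. Its log2 fold change was -3.28 ± 0.84 before induction and 0.38 ± 0.76 after it (edgeR adjusted p = 0.9496). Ddx58, which senses RNA ends, and Dhx58, a regulator of these sensors, gave -1.30 ± 0.39 and -1.53 ± 0.51 before induction.

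Among transcription factors of the pathway, Irf7 followed the library order of the median member, and Stat2, Irf9 and Irf1 departed from it in part. Irf7, the factor that amplifies interferon production, was at 147 and 262 CPM in NC, 58.3 and 24.7 in KD-Nap1l2, 219 and 51.9 in NC-7day, and 124 and 195 in KD-Nap1l2-7day. Both KD-Nap1l2 libraries lay below all others but NC-7day 2, which was below the higher of them. Its log2 fold change was -2.30 ± 0.69 before induction and 0.24 ± 0.65 after it (edgeR adjusted p = 0.966). Stat2, a transducer of the type I response, was at 297 and 463 CPM in NC, 214 and 87.8 in KD-Nap1l2, 509 and 204 in NC-7day, and 343 and 404 in KD-Nap1l2-7day. Its log2 fold changes were -1.33 ± 0.51 and 0.07 ± 0.50 (edgeR adjusted p = 0.988 after induction). Irf9, which binds DNA in the same complex, differed least of the 4 factors, at 183 and 189 CPM in NC and 125 and 59.9 in KD-Nap1l2. Irf1, an early factor of the interferon gamma response, was at 179 and 211 CPM in NC and between 77.0 and 121 in all 6 other libraries. Its NC libraries stood above every other library, induced controls included.

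The Ifit genes, whose products bind foreign RNA and hold back its translation, lie side by side on chromosome 19 within 99.5 kb. Ifit1 was at 1066 and 1320 CPM in NC, 477 and 148 in KD-Nap1l2, 1161 and 243 in NC-7day, and 592 and 797 in KD-Nap1l2-7day. The log2 fold change was -1.93 ± 0.73 before induction and -0.01 ± 0.71 after it (edgeR adjusted p = 0.999). Ifit3 and Ifit3b gave -2.34 ± 0.81 and -2.32 ± 0.82 before induction. Of the 50-base words in the GENCODE transcripts of Ifit3, 51.2% also occur in those of Ifit3b, and the split of shared reads between these genes, at a ratio of 3.29 to 3.72 in the 8 libraries, is uncertain. Ifit2 changed least of the 4, at -1.39 ± 0.52.

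The oligoadenylate synthetases make a second messenger that activates RNA decay, and Oas1a, Oas2 and Oas3 each had the highest group mean in KD-Nap1l2-7day. Oas2 was at 198 and 332 CPM in NC, 88.1 and 31.2 in KD-Nap1l2, 357 and 125 in NC-7day, and 308 and 350 in KD-Nap1l2-7day. For this gene the log2 fold change was -2.15 ± 0.59 before induction and 0.45 ± 0.57 after it (edgeR adjusted p = 0.911). Oas3 was at 14.7 and 47.1 CPM in NC, 4.18 and 4.45 in KD-Nap1l2, 47.0 and 20.2 in NC-7day, and 49.4 and 53.4 in KD-Nap1l2-7day. It was the only member whose induced shRNA libraries both lay above both induced controls, and both also above both NC libraries. The log2 fold change was 0.61 ± 0.52 after induction (edgeR adjusted p = 0.835) and -2.84 ± 0.59 before it. Rsad2, which makes a chain-terminating nucleotide, and its chromosome 12 neighbour Cmpk2, a nucleotide kinase, had the lowest fold changes before induction. Rsad2 was at 24.6 and 32.3 CPM in NC, 3.27 and 2.51 in KD-Nap1l2, 19.7 and 2.26 in NC-7day, and 15.5 and 18.7 in KD-Nap1l2-7day. Cmpk2 was at 2.91 and 8.76 CPM in NC, 0.590 and 0.456 in KD-Nap1l2, 4.34 and 0.736 in NC-7day, and 3.08 and 3.03 in KD-Nap1l2-7day, and rests on 8 to 171 estimated counts. Eif2ak2, the kinase that halts translation on sensing RNA, moved least of all members, at 195 and 222 CPM in NC and 157 and 94.9 in KD-Nap1l2.

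**Figure D3:**
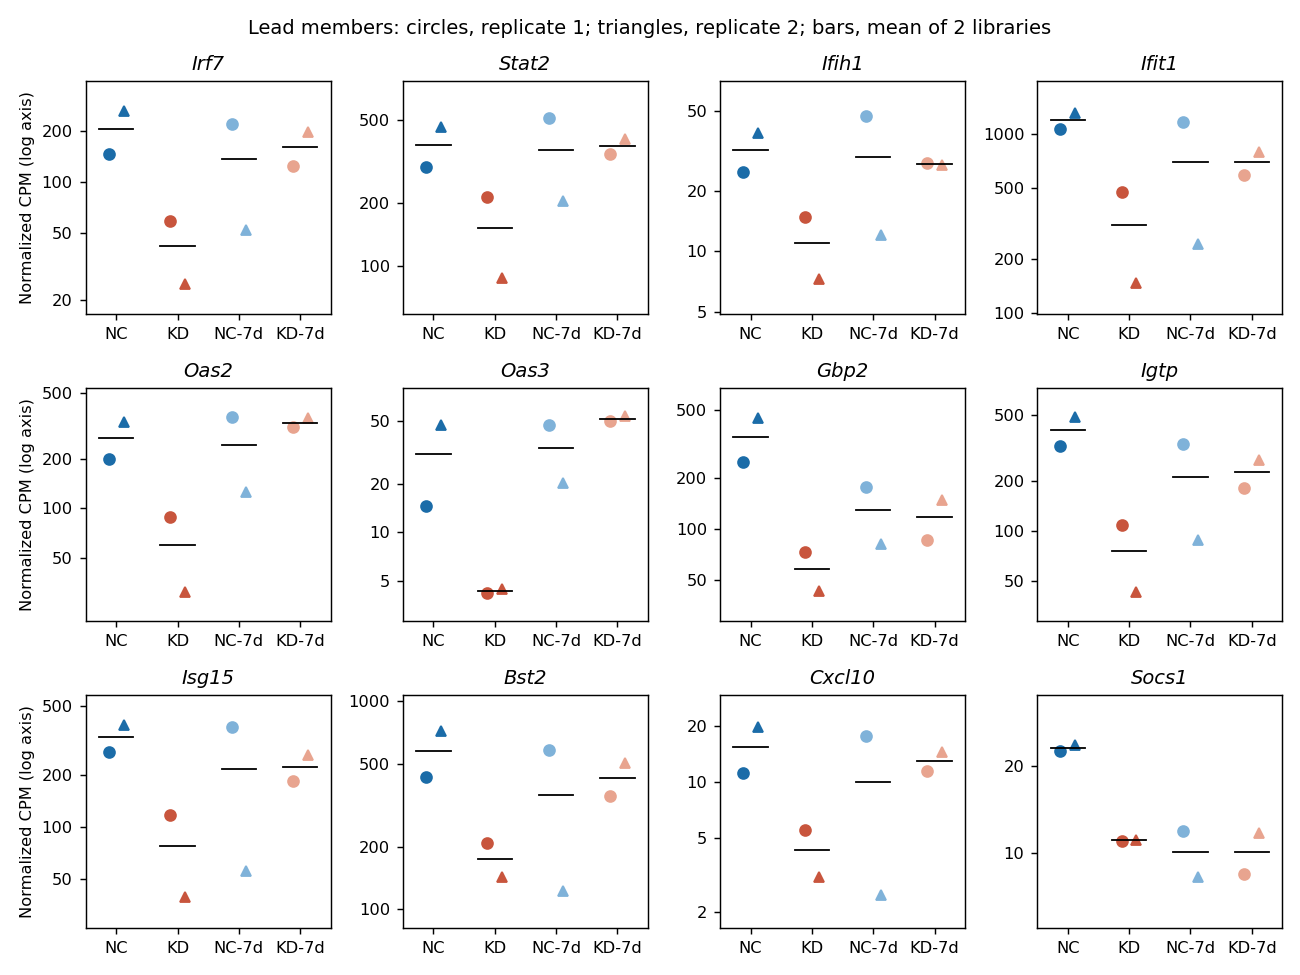
Normalized CPM of 12 members (log axis) in NC, KD-Nap1l2 (KD), NC-7day (NC-7d) and KD-Nap1l2-7day (KD-7d), with circles for replicate 1, triangles for replicate 2 and bars for the mean of 2 libraries. KD lies below NC in each panel, the NC-7d libraries are more than 2-fold apart in every panel but that of Socs1, and in the Socs1 panel only NC is high.

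The guanylate-binding proteins and immunity-related GTPases attack the membranes around intracellular microbes. The 6 members had log2 fold changes of -2.59 to -2.06 before induction, a narrow range. Gbp2 was at 248 and 453 CPM in NC, 73.4 and 42.9 in KD-Nap1l2, 177 and 81.4 in NC-7day, and 86.4 and 148 in KD-Nap1l2-7day. All libraries but those of NC were thus under 200 CPM. Its log2 fold change was -2.59 ± 0.49 before induction and -0.14 ± 0.46 after it (edgeR adjusted p = 0.970). Igtp was at 325 and 487 CPM in NC, 109 and 43.1 in KD-Nap1l2, 335 and 88.2 in NC-7day, and 183 and 270 in KD-Nap1l2-7day. The induced shRNA libraries lay between the 2 induced controls, with a log2 fold change of 0.10 ± 0.62 (edgeR adjusted p = 0.986), after -2.42 ± 0.65 before induction. Gbp3 and Gbp7, relatives on chromosome 3 with 3.75% of the 50-base words of Gbp3 in common, gave -2.26 ± 0.72 and -2.44 ± 0.59 before induction. Iigp1 was at 1125 and 1092 CPM in NC and 385 and 125 in KD-Nap1l2.

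Isg15 encodes a ubiquitin-like protein that is joined to other proteins. It was at 270 and 386 CPM in NC, 116 and 38.9 in KD-Nap1l2, 375 and 55.2 in NC-7day, and 183 and 259 in KD-Nap1l2-7day. The induced controls spanned nearly the whole range of the gene. Its log2 fold change was -2.08 ± 0.82 before induction and 0.04 ± 0.78 after it (edgeR adjusted p = 0.996). Usp18, which removes Isg15 and damps the receptor, and Herc6, the mouse ligase that attaches it, gave -1.81 ± 0.71 and -1.87 ± 0.51 before induction. Bst2, or tetherin, holds budding viruses at the cell surface. It was at 433 and 714 CPM in NC, 208 and 143 in KD-Nap1l2, 582 and 122 in NC-7day, and 348 and 503 in KD-Nap1l2-7day, with log2 fold changes of -1.71 ± 0.63 and 0.27 ± 0.61 (edgeR adjusted p = 0.958 after induction). Ifitm3 gave -0.99 ± 0.38 before induction from the highest level per length of any member in NC.

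The secreted and feedback members differed from each other. Cxcl10, a chemokine for T cells, was at 11.2 and 19.6 CPM in NC, 5.52 and 3.08 in KD-Nap1l2, 17.5 and 2.47 in NC-7day, and 11.4 and 14.4 in KD-Nap1l2-7day. The pattern was that of the antiviral genes, with log2 fold changes of -1.83 ± 0.76 before induction and 0.38 ± 0.72 after it (edgeR adjusted p = 0.949). Socs1, the inhibitor of the receptor kinases, was at 22.7 and 23.7 CPM in NC, 11.0 and 11.1 in KD-Nap1l2, 11.9 and 8.25 in NC-7day, and 8.46 and 11.7 in KD-Nap1l2-7day. Its NC libraries stood alone and the other 6 were mixed, with log2 fold changes of -1.06 ± 0.23 before induction and 0.00 ± 0.23 after it (edgeR adjusted p = 0.9997). Among the remaining members, Ifi44 gave -2.52 ± 0.90, Parp14 -2.03 ± 0.60, Rtp4 -1.80 ± 0.65, Xaf1 -1.38 ± 0.47 and Ifi35 -1.07 ± 0.40 before induction.

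After 7 days of induction, no difference between KD-Nap1l2-7day and NC-7day passed the test for any member. Of 38 members, 0 were called by edgeR (0.00% of all genes in either direction), 0 had an unadjusted p under 0.05 (3.72% of all genes higher and 4.13% lower), and DESeq2 called 0. Fitted values were above 0 for 28 (49.1% of all genes) and below 0 for 10 (50.9%), with a median log2 fold change of 0.08, from -0.20 for Ifit2 to 0.65 for Rsad2, against -0.01 over all genes. Groups did not overlap for 1 member, higher, or 2.63%, against 21.0% of all genes. For 36 members, both KD-Nap1l2-7day libraries lay between NC-7day 1 above and NC-7day 2 below, and the sign of the median depended on single libraries. The median was 1.31 without NC-7day 1, and fell to -0.52 without NC-7day 2 and -0.07 without KD-Nap1l2-7day 2. With standard errors of 0.21 to 0.94 on the log2 scale, differences of that size were not detectable. An exact test of 2 against 2 libraries cannot reach p = 0.05 for a single gene.

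**Figure D4:**
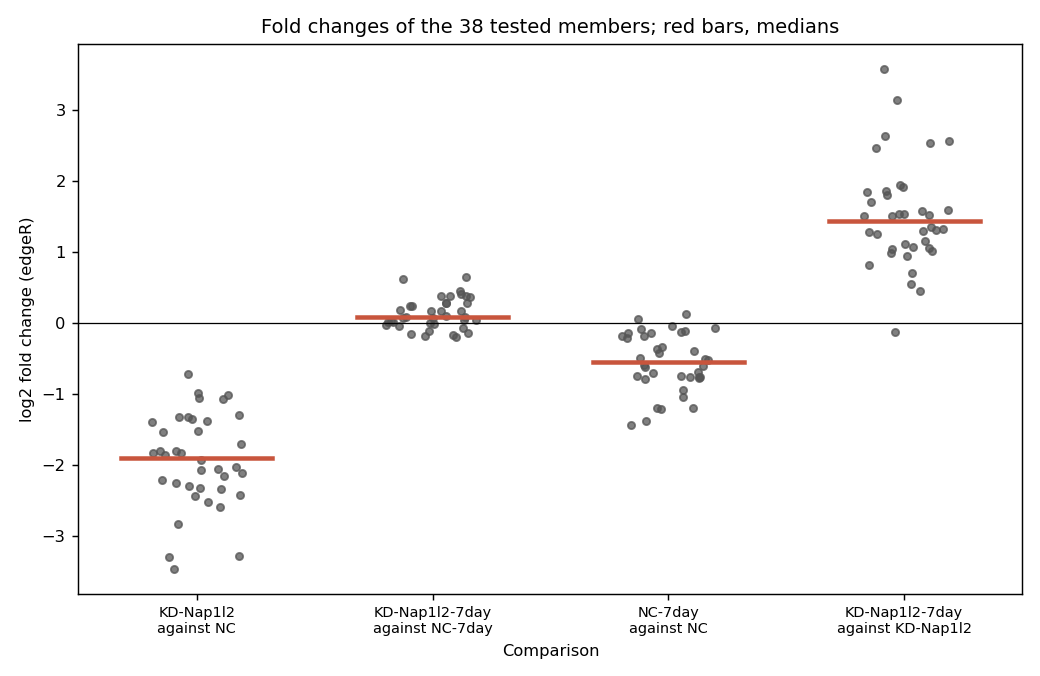
Log2 fold changes of the 38 tested members (points, spread sideways at random) in 4 comparisons, with red bars for the medians of -1.90, 0.08, -0.55 and 1.43. The second column compares induced libraries alone; the others use the uninduced libraries on which the list was chosen and are a description.

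Values with induction are given as a description, since the uninduced libraries chose the list, and nothing is read from the counts of calls. From KD-Nap1l2 to KD-Nap1l2-7day, 37 of 38 members were higher with no overlap, against 30.8% of all genes, and the median log2 fold change was 1.43. Oas3 (3.57 ± 0.60), Zbp1 (3.14 ± 0.84) and Oas2 (2.46 ± 0.60) were the 3 with an adjusted p under 0.05, against 6.84% of all genes called higher. Socs1 was the exception, at -0.14 ± 0.23. From NC to NC-7day the median was -0.55, 36 of 38 values were below 0 (50.3% of all genes), and 7 members were lower with no overlap, against 28.4% of all genes. Irf1 (-1.04 ± 0.21) and Socs1 (-1.20 ± 0.23) were the 2 with an adjusted p under 0.05, against 3.38% of all genes called lower. The medians depended on single libraries. For NC-7day against NC the median was 0.11 without NC-7day 2, -1.82 without NC-7day 1 and -0.24 without NC 2. In the shRNA cells, leaving out KD-Nap1l2 1 gave a median of 2.35, and leaving out KD-Nap1l2 2 gave 0.93. In the induced shRNA cells, 19 members had both libraries below both NC libraries, and 1 had both above them. KD-Nap1l2 held the lowest mean of the 4 groups for 37 members, and NC-7day for Socs1. KD-Nap1l2-7day held the highest mean for Ifi44, Ifitm3, Oas1a, Oas2, Oas3, Oasl1 and Usp18, and NC for the other 31. The difference between the knockdown contrasts was above 0 for 38 of 38 members, against 47.8% of all genes, with a median of 2.01. By edgeR, 0 members were called (0.00% of all genes) and 18 had an unadjusted p under 0.05 (3.50% of all genes, higher). DESeq2 called 1, given without the share of all genes that it called. Without NC-7day 1 the median difference was 3.40, and without NC-7day 2 it was 1.33.

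The transcript estimates shifted within some members. Of 36 members with at least 20 estimated counts in every library, 15 had 2 or more transcripts that averaged 10% of the gene, and in 4 (Ifit2, Iigp1, Rtp4 and Xaf1) a transcript's share varied by 30 percentage points or more. For Ifit2, the model XM_006526706.3 took 59.5% and 53.2% of the counts in NC, 42.8% and 6.09% in KD-Nap1l2, 63.8% and 32.1% in NC-7day, and 42.0% and 58.1% in KD-Nap1l2-7day. The estimated counts of the other main transcript, NM_008332.3, ranged only from 1259 to 2846, while those of XM_006526706.3 ranged from 93.3 to 4088. For Rtp4, a chaperone of receptors, NM_023386.5 took 89.6% and 92.6% in NC, 80.9% and 44.6% in KD-Nap1l2, 90.1% and 69.6% in NC-7day, and 90.6% and 88.9% in KD-Nap1l2-7day. In both genes the library with the lowest member level had the lowest share of that transcript. The shares are estimates from reads that transcripts have in common, and were not tested.

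**Figure D5:**
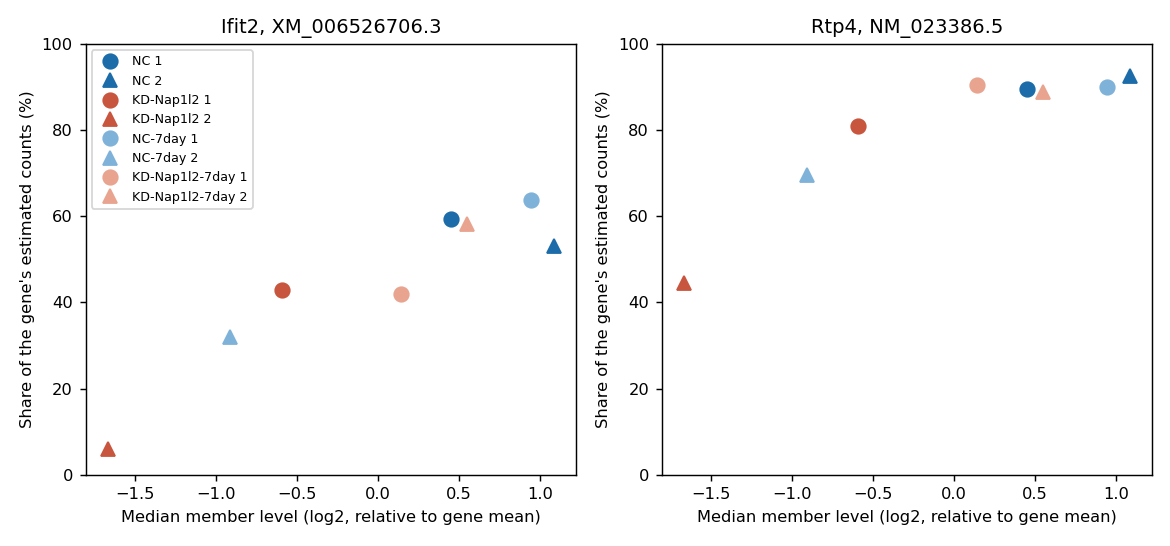
Share of a gene's estimated counts (y axis, percent) given to transcript XM_006526706.3 of Ifit2 and NM_023386.5 of Rtp4, against the median level of the 38 members in the same library (x axis, log2 relative to each gene's mean). Colours are groups, circles replicate 1 and triangles replicate 2; KD-Nap1l2 2 is lowest on both axes.

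Genes upstream of the members were examined next. Interferon ligands were near 0: of 13 in the table, 10 had at most 3 estimated counts in every library, and Ifnb1, the interferon of fibroblasts, had 0 and 4 counts in NC, 1 and 0 in KD-Nap1l2, 6 and 0 in NC-7day, and 4 and 11 in KD-Nap1l2-7day. A library at 0 still allows up to 3 counts, or 0.154 to 0.176 CPM. Only Ifnz passed the filter, with 4.47 to 31.0 counts and a log2 fold change of -0.30 ± 0.76 before induction (edgeR adjusted p = 0.895). Of 6 receptor chains, 5 were tested and 0 were called in any comparison. Before induction their log2 fold changes were 0.04 ± 0.11 for Ifnar1, -0.15 ± 0.14 for Ifnar2, 0.10 ± 0.17 for Ifngr1, 0.03 ± 0.17 for Ifngr2 and -0.02 ± 0.12 for Il10rb, while Ifnlr1 had almost no counts. Among the signal transducers, Irf5 was at -1.38 ± 0.33 and Stat3 at 0.34 ± 0.12 before induction, and neither was called. Of 10 adaptors and kinases of nucleic acid sensing 0 were called, with Tlr3 at -1.36 ± 0.39, Trex1 at -0.80 ± 0.38 and Myd88 at -0.41 ± 0.20. Of 7 other feedback inhibitors 0 were called, with Ptpn6 at -0.68 ± 0.32, Pias4 at 0.38 ± 0.19 and Socs3 at 0.27 ± 0.18. With induction, Ikbke, a kinase that activates Irf factors, rose by 0.76 ± 0.15 in NC and 0.95 ± 0.15 in the shRNA cells, and Tmem173, the adaptor of DNA sensing, by 0.98 ± 0.24 and 0.99 ± 0.24 (log2, edgeR, adjusted p from 0.00837 to 0.0486).

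Other interferon-stimulated genes outside the list went the same way in the uninduced comparison without passing the test. They too were chosen with earlier results of these data known. Their values in the same uninduced libraries are a description, not an independent check of the members. Of 79 listed, 74 were tested, 71 had values below 0 against 48.5% of all genes, 64 were separated lower against 21.2%, and 0 were called (56 at an unadjusted p under 0.05, lower, against 6.73%). Their median log2 fold change was -1.44. The largest were -3.76 ± 0.84 for Gm12250, -3.63 ± 0.96 for Ifi44l and -3.33 ± 0.58 for Tnfsf10, a death ligand, while Ifitm1, a relative of Ifitm3, was at 1.14 ± 0.36. After induction 0 of the 74 were called in KD-Nap1l2-7day against NC-7day, and the median was 0.12. From KD-Nap1l2 to KD-Nap1l2-7day 12 rose and 0 fell by the test, against 6.84% and 7.36% of all genes, led by Ifi207 (5.45 ± 0.49), Tgtp1 (3.35 ± 0.76) and Slfn2 (2.98 ± 0.72). From NC to NC-7day Ifi207 (2.67 ± 0.43) and Ifi204 (1.25 ± 0.30), DNA-binding proteins of 1 gene family, rose, and Tnfsf10, Gbp8 and Uba7, the activating enzyme for Isg15, fell (edgeR, adjusted p under the 0.05 threshold), against 4.83% of all genes called higher and 3.38% called lower.

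Markers of other cells were measured beside these results. The summed level of 10 macrophage markers ran from 18.1 to 20.3 CPM in NC and 17.9 to 23.2 in KD-Nap1l2, that of 5 dendritic cell markers from 3.94 to 4.05 and 4.02 to 5.30, and that of 7 lymphocyte markers from 1.02 to 1.35 and 0.399 to 1.18, with 0 called in this comparison. The 6 endothelial markers summed to 8.96 to 13.2 CPM in NC and 9.76 to 10.2 in KD-Nap1l2. These sums hide opposite changes at low levels. Of the 4 tested, 3 were separated lower and 1 higher, with log2 fold changes of -4.71 to 1.13 and 0 called. After induction the macrophage sum was 19.8 to 30.8 CPM in NC-7day and 24.7 to 33.0 in KD-Nap1l2-7day. At most 3 estimated counts in every library were found for 2 of the 10 macrophage, 2 of the 5 dendritic cell, 3 of the 7 lymphocyte and 1 of the 6 endothelial markers. Of the 10 mesenchymal markers, whose sum was 18844 to 19238 CPM in NC and 17381 to 23981 in KD-Nap1l2, Ly6a, itself inducible by interferon, followed the members at 1916 and 3422 CPM in NC and 1118 and 847 in KD-Nap1l2. In KD-Nap1l2 and NC-7day, the groups whose libraries were farthest apart, 3 of the 10 (Col1a1, Col1a2 and Vim) were higher in replicate 2 of both, 3 (Pdgfra, Pdgfrb and Ly6a) were lower in replicate 2 of both, and 4 (Thy1, Eng, Cd44 and Prrx1) went 1 each way. Their part in the members' values was not tested.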

How the data were processed

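RNA-seq libraries of C3H10T1/2 cells were prepared and sequenced by Beijing Genomics Institute. The submitters' processing notes name BWA, Bowtie2 and RSEM without versions or roles, and the genome build GRCm38.p6. The authors deposited estimated counts per gene and per transcript, not normalized, with fractional values in 41.1% of genes. Values deposited beside them were taken as FPKM, counts scaled by length and library, from their size; their unit is not given in the sources used here. The tables of the authors' own DESeq2 comparisons (fold changes, p-values and q-values) were not used.

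Estimated counts were rounded, scaled by TMM and filtered with filterByExpr. All 8 libraries were fitted in 1 model with edgeR 4.0.16 in R 4.3.3, by its quasi-likelihood test with Benjamini-Hochberg adjustment over 13470 genes and a threshold of 0.05. Normalized CPM are these counts scaled to library size, and SE is that of the log2 fold change. The fit was tested on simulated data. DESeq2 1.42.0 and limma 3.58.1 on log2(FPKM + 1) and log2(FPKM + 0.1) were alternatives. Limits from 0 counts cover counting error only, and the binomial interval covers the number of promoters.

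Members and all gene lists were chosen with earlier results of these data known. Values in every library are given for lead members of each role (Irf7, Stat2, Ifih1, Ifit1, Oas2, Gbp2, Igtp, Isg15, Bst2, Cxcl10, Socs1) and for some others, among them the called members Oas3 and Zbp1. For Irf1, called in NC-7day against NC, the libraries outside NC are given as a range. For other lists, the ligands are covered as a set with values for Ifnb1 and Ifnz, all receptors are covered, and otherwise the largest changes among those reported. A gene of the pathway is not reported here.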

Additional observations from a re-analysis of the deposited data

Results flagged for a closer look

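For 7 members, groups were separated with no overlap in opposite directions under the same contrast in the 2 backgrounds or at the 2 time points. Irf1, Rsad2, Gbp2, Gbp7, Iigp1 and Xaf1 were lower in both NC-7day libraries than in both NC libraries and higher in both KD-Nap1l2-7day libraries than in both KD-Nap1l2 libraries. Oas3 was lower in both KD-Nap1l2 libraries than in both NC libraries and higher in both KD-Nap1l2-7day libraries than in both NC-7day libraries. Some gaps were narrow. The highest NC-7day library stood at 0.955 of the lowest NC library for Gbp7, 0.939 for Iigp1 and 0.935 for Xaf1. For Irf1, Gbp2 and Rsad2 this ratio was 0.627, 0.715 and 0.801. For Oas3 the lowest KD-Nap1l2-7day library stood at 1.05 times the highest NC-7day library. Of all 13470 genes tested, 1027 (7.62%) showed either pattern of opposite separation. The difference between the knockdown contrasts, on the log2 scale, was 1.49 for Irf1, 3.94 for Rsad2, 2.45 for Gbp2, 2.28 for Gbp7, 2.09 for Iigp1, 1.74 for Xaf1 and 3.45 for Oas3. Since the list was chosen on libraries that enter these differences, they are given without a test for the single genes. When the difference was fitted over all genes with edgeR, 0 members were called (0.00% of all genes, higher). By the same fit, 18 members had an unadjusted p under 0.05 (3.50% of all genes, higher). DESeq2 called 1, given without the share of all genes that it called. Groups of 2 libraries are too small to look for a single library that stands apart within a group.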

How the results depend on the processing

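Medians of the members kept their sign under every alternative other than leaving out a library, and single libraries moved them. Before induction, edgeR called 0 members, DESeq2 9 and the fit with no filter on low counts 3; leaving out each library in turn gave 0 to 1 calls and medians of -2.88 (without KD-Nap1l2 1) to -1.47. After induction, leaving out libraries gave 0 calls each time and medians of -0.52 to 1.31. For NC-7day against NC, 1 member was called with only the libraries compared, and leaving out libraries gave 0 to 7 calls and medians of -1.82 to 0.11. For KD-Nap1l2-7day against KD-Nap1l2, DESeq2 called 7, the fit with no filter 5 and that with only the libraries compared 14, and leaving out libraries gave 0 to 8 calls and medians of 0.93 to 2.35. The difference of the contrasts had 1 call by DESeq2, and 0 to 1 calls and medians of 1.33 to 3.40 when libraries were left out. Of the lead members after induction, leaving out libraries gave log2 fold changes of -0.45 to 1.62 for Irf7, -0.45 to 0.87 for Stat2, -0.79 to 1.16 for Ifih1, -0.74 to 1.52 for Ifit1, -0.11 to 1.39 for Oas2, -0.60 to 0.52 for Gbp2, -0.56 to 1.36 for Igtp, -0.76 to 2.00 for Isg15, -0.45 to 1.80 for Bst2, -0.44 to 2.38 for Cxcl10 and -0.26 to 0.29 for Socs1. With limma on log2(FPKM + 1) and log2(FPKM + 0.1), Ifih1 turned to 0.058 and 0.11, Ifit1 to 0.36 and 0.37, and Socs1 to -0.013 and -0.014; with no filter Socs1 turned to -0.0019. Causes were not tested. Counts of calls under an alternative are given without the share of all genes called in the same setting, so changes in them are not read. The gamma-activated site in place of the response element gave 28.1% of member promoters.

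The labels give replicate numbers, and the correlation of replicate differences between groups ran from -0.09 to 0.12 over 13470 genes. That does not decide whether the numbers pair the libraries. Among the 38 members, replicate 1 was higher for 38 in NC-7day and 35 in KD-Nap1l2. Replicate 2 was higher for 37 in NC and 35 in KD-Nap1l2-7day. With the replicate number as a block, 0 members were called before induction, 0 after it, 2 in NC-7day against NC and 2 in KD-Nap1l2-7day against KD-Nap1l2, with medians of -2.11, 0.31, -0.78 and 1.63, and Ifih1 and Ifit1 turned to 0.039 and 0.32 after induction. Each arm left with 1 library was taken to vary like the others. Members under about 10 estimated counts in a library, such as Oasl1 and Cmpk2, are limited by depth.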
